A study of Rattus norvegicus with 6 samples.

Results

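The genes described are the cytosolic aminoacyl-tRNA synthetases and the amino acid response genes around the transcription factor ATF4, in the pulmonary veins (PVs) of young rats after bilateral pulmonary vein banding (BPVB). They were taken by symbol from a list of 36 genes, and 32 of these symbols were found among the 17833 genes of the expression table. All 32 passed the filter on low values. The 15 synthetases found by symbol and the 17 genes of the ATF4 arm are described in turn. Another 4 listed synthetases, Cars1, Eprs1, Gars1 and Kars1, stand in the table under the older symbols Cars, Eprs, Gars and Kars. They were matched by their NCBI gene numbers (293638, 289352, 297113 and 292028), are described beside the members, and are not counted among them unless stated.

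The study compared 3 rats with banded PVs and 3 sham-operated rats. All 6 were wild-type animals of the SD (Sprague-Dawley) strain, operated on at postnatal day 1 and studied at postnatal day 21. BPVB narrowed the PVs on both sides with a suture, whereas sham rats had the chest opened and the PVs exposed without a lasting band. PV tissue of the right upper lung lobe gave 1 library per rat. The rats were picked at random from each group by the study's methods, so the replicates are separate animals, and p-values measure the spread between these animals only. The comparison asks how gene expression in the PV differs after narrowing.

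An aminoacyl-tRNA synthetase joins an amino acid to its tRNA, the step that fixes the meaning of the genetic code. When uncharged tRNA, unfolded protein or other stress activates one of the kinases of the initiation factor eIF2, general translation slows while ATF4 mRNA is translated more. ATF4, often paired with a C/EBP protein, then raises genes for amino acid synthesis, amino acid uptake and tRNA charging through a composite site, the C/EBP-ATF response element. Much of the control of ATF4 lies at translation, which RNA levels do not show.

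The promoters show which members carry this element near the gene start. Some ATF4 targets are known as such because of this element, so its share among the members is a description and not independent of how such lists are made. The RefSeq promoter table (build GRCr8, 250 bases before to 50 after each gene start) held an entry for 29 of the 32 members. The element was searched on both strands as TGATGNAAN. It was found in 10 of the 29 members (34.5%), beside 4.14% of the 27457 promoters of the table and 2.42% of the 12200 promoters of genes tested. The narrower form TGATGCAAT, a subset of the first, was found in 3 of the 29 (10.3%) and in 0.211% of all promoters. The share was 42.9% (6 of 14) among the synthetases and 26.7% (4 of 15) in the ATF4 arm. The listed mitochondrial synthetases held it in 0 of 16 promoters. A match is a run of letters in this window and no measured binding site.

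The stretches below hold the matches of 6 members, chosen to cover synthetases, the feedback gene Trib3, a transporter and a gene that fell. The last is from Nupr1, an ATF4 target outside the members. Each is written 5′ to 3′ on the strand of its gene, and capitals mark the match.
Aars1, chr19:55908348-55908398, plus strand: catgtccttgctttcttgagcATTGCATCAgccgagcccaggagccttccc
Tars1, chr2:62114803-62114851, minus strand: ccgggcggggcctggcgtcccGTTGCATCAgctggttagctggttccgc
Iars1, chr17:15193653-15193698, minus strand: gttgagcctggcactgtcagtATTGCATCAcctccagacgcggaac
Trib3, chr3:161275534-161275576, minus strand: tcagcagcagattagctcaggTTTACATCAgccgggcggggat
Slc7a1, chr12:11664437-11664487, plus strand: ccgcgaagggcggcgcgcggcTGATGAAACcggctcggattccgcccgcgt
Pycr1, chr10:106420914-106420964, minus strand: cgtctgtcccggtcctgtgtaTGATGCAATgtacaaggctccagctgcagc
Nupr1, chr1:190645928-190645978, minus strand: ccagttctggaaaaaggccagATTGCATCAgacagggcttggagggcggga

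Aars1, Tars1, Iars1, Trib3 and Nupr1 carry the element in the reverse direction and Slc7a1 and Pycr1 carry it forward. The matches of Tars1, Iars1 and Trib3 begin 28, 25 and 22 bases before the gene start, as position -28, -25 and -22. The printed matches of Aars1 and Pycr1 lie further away, beginning at position -113 and -131, and Aars1 has a second match past its start, at positions 9 to 17. The other 4 members with a match are Mars1, Nars1 and Chac1, before the start, and Yars1, past it. The element was held by 5 of the 14 members that rose, 1 of the 2 that fell and 4 of the 13 that were not called, among those with a promoter entry. Asns, Atf4, Sars1 and Slc7a5 had no match in this window.

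Depth and tissue were checked before the comparison. The libraries held between 23439506 and 29725808 fragments, recovered from the steps of the deposited FPKM (fragments scaled by gene length and library total), and all 3 BPVB libraries were deeper than all 3 sham libraries. Markers of the vein were present in every library. Summed FPKM were 5233 to 5284 in the BPVB group and 5465 to 5504 in the sham group for 8 smooth muscle markers, 1080 to 1096 and 1223 to 1233 for 8 endothelial markers, and 15488 to 15900 and 21295 to 21705 for 8 cardiomyocyte markers of the myocardial sleeve around the vein. Of these 2, 0 and 2 rose and 4, 5 and 6 fell. Markers of other cells moved with the groups. All 9 macrophage markers tested rose, with sums of 692.1 to 713.7 and 234.3 to 245.8, as did 9 of 10 alveolar epithelial markers (649.8 to 704.9 and 133.8 to 138.5), while the other, Hopx, fell. Of 8 fibroblast markers 5 rose and 2 fell (5818 to 5844 and 5237 to 5252). Higher too were all 8 markers of proliferating cells (53.4 to 54.4 and 18.2 to 23.7). Of 8 Schwann cell and neuron markers 6 fell (37.5 to 40.04 and 107.7 to 113.6), as did 3 of 6 neutrophil markers (6.71 to 10.3 and 20.5 to 23.6). Lymphocyte markers summed to 12.8 to 12.9 and 9.38 to 9.52, and 1 of 8 rose. Airway markers summed to 24.7 to 28.6 and 3.47 to 5.85, mostly the secretory gene Scgb1a1, the 1 of 3 tested that was called. Of these the ciliated cell factor Foxj1 was listed at 0 in all BPVB libraries and the mucin Muc5b in 5 of the 6 libraries, and the neuronal receptor Chrna3 was at 0 in all BPVB libraries. All 8 immediate-early genes fell, from summed FPKM of 939.4 to 959.8 in the sham group to 419.9 to 432.4 in the BPVB group. These are bulk samples, in which fewer cells of a type and less RNA per cell cannot be told apart, and the part of these markers in the differences that follow was not tested.

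Of the 32 members, 15 were higher in the BPVB group, 3 were lower and 14 were not called, by limma on log2(FPKM + 0.5) at an adjusted p under 0.05. Among all 15150 genes tested, 17.2% were called higher and 14.3% lower. The log2 difference was above 0 in 25 members, and its median was 0.16 beside 0.02 over all genes tested. In 19 members all 3 BPVB values lay above all 3 sham values, and in 4 all lay below, patterns shown by 25.2% and 20.5% of the genes tested. Only 2 members, Trib3 and Asns, passed the study's thresholds for a differentially expressed gene (DEG), an adjusted p under 0.05 with an absolute log2 difference above 1. Both were higher, as were 2.24% of all genes tested. This count was 0 with a pseudocount of 1 or without the third BPVB library, and 1 without the first BPVB library or any 1 sham library. With the 4 older symbols 17 of 36 genes were higher and 3 lower. The FPKM of the 32 members summed to 714.5 to 733.2 in banded rats and 601.3 to 604.2 after sham surgery. The plot of log2 differences by role shows the spread of directions within each branch.

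**Figure D1:**
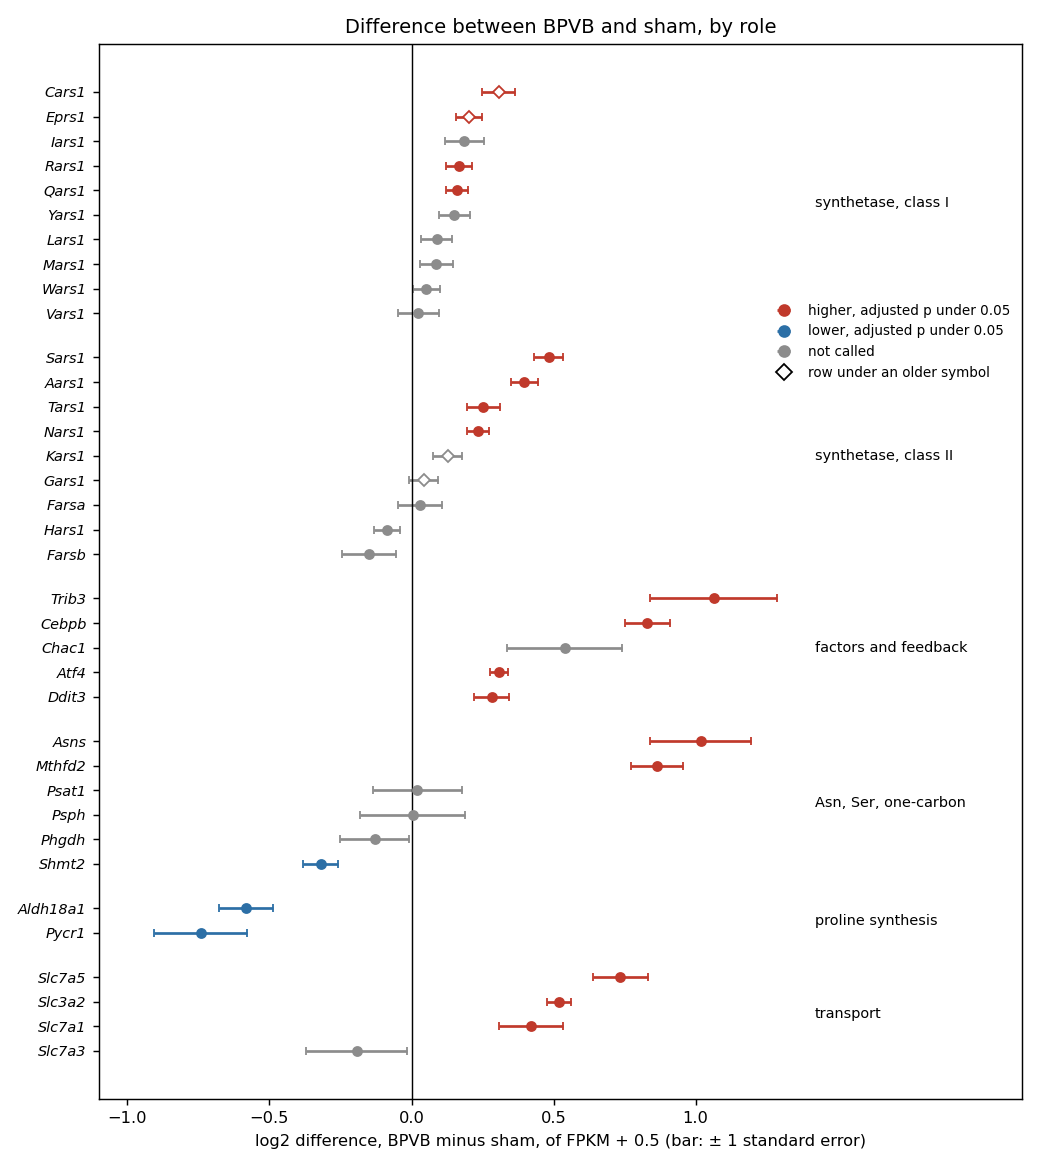
Log2 difference between the BPVB and sham groups (3 rats each) for the 32 members and the 4 genes under older symbols (open diamonds), grouped by role. Bars are ± 1 standard error from limma, red points are called higher, blue points lower and grey points were not called. Trib3 (1.06) and Asns (1.02) lie furthest to the right, and Pycr1 (-0.74) and Aldh18a1 (-0.58) furthest to the left.

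RNA of Atf4 and of most genes around it was higher in banded PVs. Of the 5 genes for transcription factors and feedback proteins, 4 rose, and in all 5 every BPVB value lay above every sham value. Among all genes tested, 17.2% were called higher and 25.2% were separated in this way. The median log2 difference of the 5 was 0.54. Atf4 (NCBI gene 79255), the factor at the centre of the response, measured 151, 156 and 151 FPKM in banded rats, against 119.9, 125 and 125 after sham surgery. The groups did not overlap and each was tight. Its mean was 153 ± 2.79 (SD, n = 3) against 123 ± 2.96, 1.24 times as high, with a log2 difference of 0.31 (SE 0.030, limma adjusted p = 9.1e-05).

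Cebpb (24253) encodes C/EBPβ, a partner that can bind the composite element with ATF4. It measured 39.9, 36.8 and 34.8 FPKM in banded rats, against 19.4, 23.3 and 19.4 after sham surgery. The lowest BPVB value was well above the highest sham value. The ratio of means was 1.79 and the log2 difference 0.83 (SE 0.080, limma adjusted p = 7.9e-05). Ddit3, which encodes the factor CHOP, rose less, with 42.3 ± 3.46 FPKM against 34.7 ± 1.46 and a log2 difference of 0.28 (limma adjusted p = 0.0085). The span of Ddit3 overlaps those of Mars1 (62 bases) and of the protein-coding gene LOC134479709 (3930 bases) in RefSeq GRCr8. The strand setting of the counting is not given in the sources used here, so reads from the overlaps cannot be assigned.

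Trib3 (246273), a pseudokinase that ATF4 induces and that acts back on it, was low in both groups. It measured 2.25, 2.22 and 2.63 FPKM (86, 83 and 112 fragments) in banded rats, against 0.970, 0.447 and 1.35 (33, 15 and 46 fragments) after sham surgery. All BPVB values were higher, and the second sham library was the lowest by far. The ratio of means was 2.57 and the log2 difference 1.06 (SE 0.22, limma adjusted p = 0.0067). Adding 0.5 to each FPKM understates changes of low genes. With a pseudocount of 1 the difference was 0.84, without the second sham library 0.80, and on the recovered fragments with limma-voom 1.48. Chac1, a glutathione-degrading enzyme, was lower still, with 26, 14 and 14 fragments against 6, 9 and 0. The 0 allows up to 3 fragments, by counting error alone. Its groups did not overlap, but the log2 difference of 0.54 was not called (limma adjusted p = 0.074). It ranged from 0.32 with a pseudocount of 1 to 1.28 with a pseudocount of 0.1 and 2.28 by limma-voom, and was called under none of these.

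**Figure D2:**
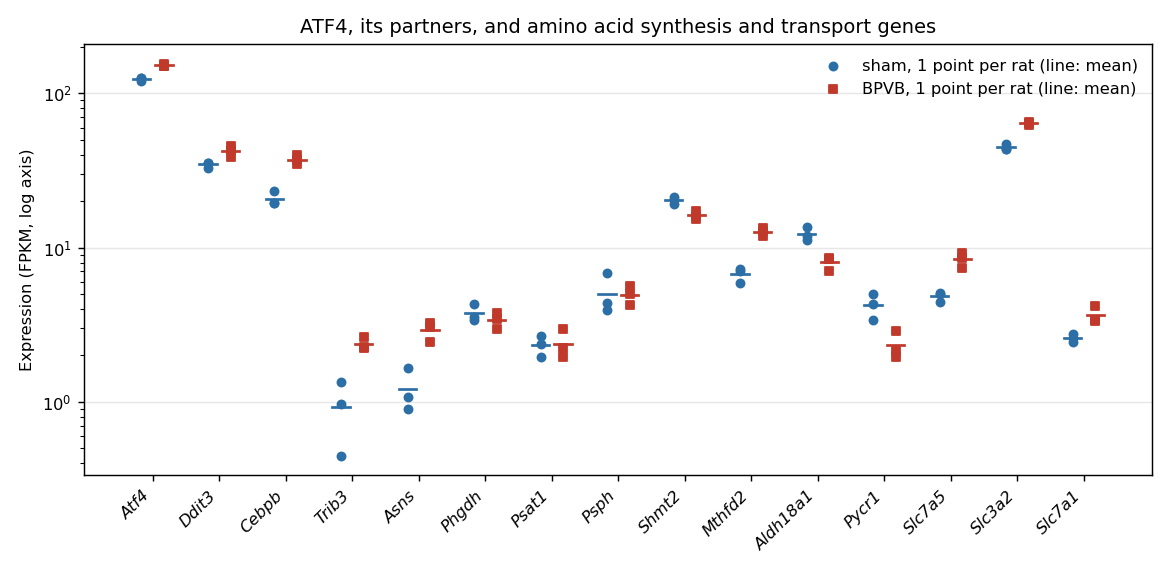
FPKM on a log axis in each library (1 point per rat, 3 BPVB and 3 sham, line at the mean) for 15 genes of the ATF4 arm. Chac1 and Slc7a3 are left out because some of their values are 0. BPVB points lie above sham points for Atf4, Ddit3, Cebpb, Trib3, Asns, Mthfd2, Slc7a5, Slc3a2 and Slc7a1 and below them for Shmt2, Aldh18a1 and Pycr1.

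The synthetic enzymes of the ATF4 arm moved in both directions. Of the 6 genes for asparagine, serine and one-carbon synthesis 2 rose and 1 fell, and their median log2 difference was 0.01. Asns (25612), asparagine synthetase, measured 3.25, 2.44 and 3.04 FPKM (252, 185 and 262 fragments) in banded rats, against 0.898, 1.65 and 1.07 (62, 112 and 74 fragments) after sham surgery. No sham value reached a BPVB value. Its mean was 2.91 ± 0.419 FPKM against 1.20 ± 0.392, a ratio of 2.42, with a log2 difference of 1.02 (SE 0.18, limma adjusted p = 0.0024). The difference was 0.84 with a pseudocount of 1 and 0.89 to 1.20 when 1 library was left out.

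Mthfd2, the mitochondrial folate enzyme that oxidises methylene-tetrahydrofolate, measured 13.3, 12.7 and 11.9 FPKM in banded rats, against 5.87, 7.31 and 7.06 after sham surgery. The groups lay far apart, with a ratio of 1.87 and a log2 difference of 0.86 (SE 0.091, limma adjusted p = 0.00013). Shmt2, the mitochondrial serine hydroxymethyltransferase that feeds carbon into the same folate pool, went the other way. It measured 16.0, 17.2 and 15.3 FPKM in banded rats, against 21.3, 20.4 and 19.2 after sham surgery. Again the groups did not overlap, and the log2 difference was -0.32 (SE 0.063, limma adjusted p = 0.0046). The span of Shmt2 overlaps that of Ndufa4l2 by 50 bases in RefSeq GRCr8.

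The 3 enzymes that make serine from a glycolytic intermediate showed no called difference. Phgdh, which catalyses the first step, had 3.39 ± 0.412 FPKM against 3.75 ± 0.466, a log2 difference of -0.13 (limma adjusted p = 0.46). Psat1, the transaminase, and Psph, the phosphatase of the last step, had log2 differences of 0.02 (limma adjusted p = 0.94) and 0.00 (limma adjusted p = 0.99). The SE was 0.16 for Psat1 and 0.18 for Psph, and the sign of both depended on the setting. For all 3 the groups overlapped.

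Both genes of proline synthesis fell. Aldh18a1, which encodes the enzyme that turns glutamate into the precursor of proline, measured 8.52, 8.40 and 7.08 FPKM in banded rats, against 13.6, 11.9 and 11.2 after sham surgery. All sham values were higher, and the log2 difference was -0.58 (SE 0.095, limma adjusted p = 0.0017). Pycr1, the reductase of the last step, measured 1.95, 2.14 and 2.88 FPKM in banded rats, against 5.01, 3.39 and 4.27 after sham surgery. Its groups were separate too, with a log2 difference of -0.74 (SE 0.16, limma adjusted p = 0.0083). The promoter window of Pycr1 holds the narrow form of the element. Its span overlaps that of Myadml2 by 127 bases, and the span of Aldh18a1 that of the lncRNA gene LOC134484024 by 395 bases.

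The transporters of the ATF4 arm mostly rose, with 3 of 4 called higher and a median log2 difference of 0.47. Slc7a5, the light chain of the LAT1 exchanger for large neutral amino acids, measured 9.16, 7.42 and 8.60 FPKM in banded rats, against 5.08, 4.44 and 4.98 after sham surgery. Every BPVB value exceeded every sham value, the ratio was 1.74 and the log2 difference 0.73 (SE 0.097, limma adjusted p = 0.00050).

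Slc3a2, the heavy chain (4F2hc or CD98) that carries Slc7a5 and other light chains to the membrane, measured 64.4, 62.5 and 65.3 FPKM in banded rats, against 43.8, 43.3 and 46.8 after sham surgery. Both subunits of the exchanger were thus higher in each BPVB library. The log2 difference was 0.52 (SE 0.041, limma adjusted p = 2.5e-05), the smallest adjusted p among the members. Slc7a1, a carrier of arginine and lysine, measured 4.20, 3.36 and 3.40 FPKM in banded rats, against 2.74, 2.45 and 2.60 after sham surgery. The first BPVB library was the highest, and the groups did not overlap. Its log2 difference was 0.42 (SE 0.11, limma adjusted p = 0.021). The call was lost without the first BPVB (adjusted p = 0.070), the second sham (0.064) or the third sham library (0.053). Slc7a3, a related carrier, was near the limit of detection, with 2, 14 and 0 fragments against 6, 15 and 9, a log2 difference of -0.19 and overlapping groups (limma adjusted p = 0.45). With so few fragments the value moved widely, to -0.66 with a pseudocount of 0.1 and -2.19 by limma-voom, and Slc7a3 was called under none of the settings that gave a value.

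The synthetases that were called rose by 1.12 to 1.40 times. Of the 15 found by symbol 6 were higher, 0 were lower and 9 were not called, with 13 log2 differences above 0, a median of 0.15 and a range from -0.15 to 0.48. Over all genes tested 17.2% were called higher and 14.3% lower. In 9 of the 15 all BPVB values lay above all sham values, and in 1 all lay below, beside 25.2% and 20.5% of the genes tested. The FPKM of the 15 summed to 355.2 to 361.9 in banded rats and 313.6 to 316.6 after sham surgery. With the 4 older symbols 8 of 19 were higher, 0 lower and 11 not called. None of the 19 had a lower level at an unadjusted p under 0.05 either, by limma (0 genes) or by limma-voom on the fragments (0 genes).

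Sars1 (266975), which charges tRNA with serine, rose most. It measured 51.9, 53.8 and 53.6 FPKM in banded rats, against 39.9, 38.7 and 35.1 after sham surgery. The groups were clearly apart, with a ratio of 1.40 and a log2 difference of 0.48 (SE 0.051, limma adjusted p = 0.00013). Aars1 (292023), for alanine, came next with 36.9, 35.1 and 34.2 FPKM against 26.2, 26.4 and 27.7. Again no values overlapped. The ratio was 1.32 and the log2 difference 0.40 (SE 0.046, limma adjusted p = 0.00024). The span of Aars1 overlaps that of Ddx19b by 3441 bases, and the span of Sars1 that of the lncRNA gene LOC108350091 by 6689 bases. Cars1, for cysteine and listed under Cars, measured 12.5, 12.0 and 12.2 FPKM against 10.0, 9.40 and 9.98, which did not overlap, with a log2 difference of 0.31 (SE 0.059, limma adjusted p = 0.0042).

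The other synthetases that were higher differed by less than 0.3 on the log2 scale, and in each of them the groups were separate. Tars1, for threonine, had 17.7 ± 0.583 FPKM against 14.7 ± 0.715, a log2 difference of 0.25 (limma adjusted p = 0.0092). Nars1, for asparagine, had 35.9 ± 0.595 against 30.4 ± 0.688 and 0.23 (limma adjusted p = 0.0021). Eprs1, the joint enzyme for glutamate and proline listed under Eprs, had 30.1 ± 0.825 against 26.1 ± 0.885 and 0.20 (limma adjusted p = 0.0092). These are rises of 1.20, 1.18 and 1.15 times, small beside those of Sars1 and Aars1. Qars1, for glutamine, had 46.7 ± 1.01 FPKM against 41.7 ± 1.02 and a log2 difference of 0.16 (limma adjusted p = 0.012). Rars1, for arginine, had 30.6 ± 0.498 against 27.2 ± 1.06 and 0.17 (limma adjusted p = 0.021). The call of Rars1 was lost without the first BPVB (adjusted p = 0.062), the third BPVB (0.052), the second sham (0.058) or the third sham library (0.071).

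**Figure D3:**
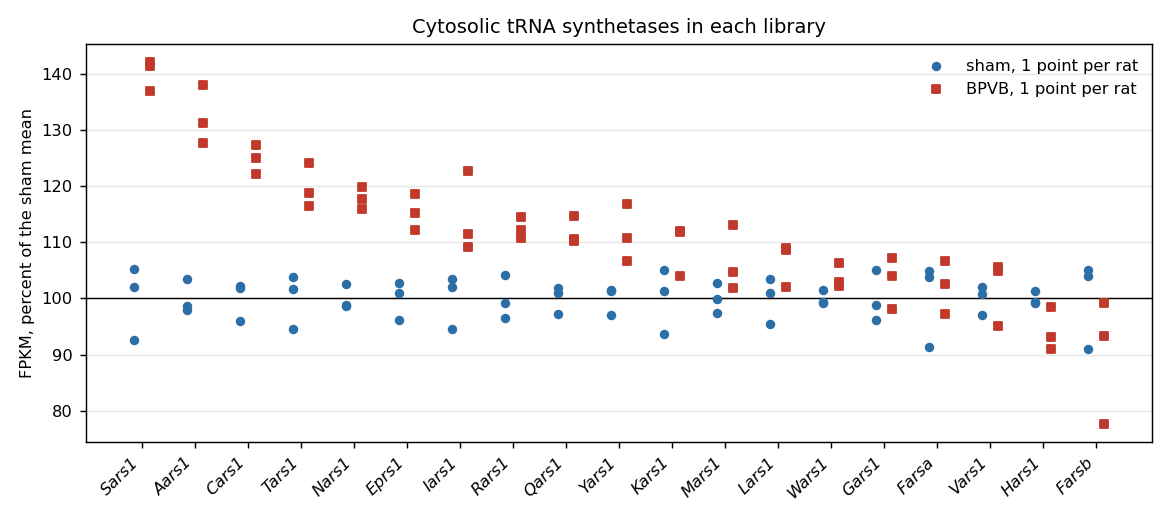
FPKM of the 19 cytosolic synthetase genes, including the 4 under older symbols, in each of the 3 BPVB and 3 sham libraries, as a percent of the sham mean of the gene and ordered by the ratio of the means. The BPVB points lie above all sham points from Sars1 to Yars1 on the left and for Wars1, and those of Hars1 lie below.

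The remaining synthetases were not called. Iars1 (isoleucine) and Yars1 (tyrosine) came closest, with log2 differences of 0.19 (limma adjusted p = 0.073) and 0.15 (limma adjusted p = 0.060) and no overlap between groups. Both were called when the values were rescaled to TPM. Wars1 (tryptophan) also had separate groups, but the log2 difference was only 0.05 (limma adjusted p = 0.45). Kars1 (lysine), Lars1 (leucine), Mars1 (methionine), Gars1 (glycine), Farsa (the alpha subunit for phenylalanine) and Vars1 (valine) lay between 0.02 for Vars1 and 0.13 for Kars1, with overlapping groups. Kars1 was the most abundant synthetase per length, at 61.7 ± 2.57 FPKM against 56.5 ± 3.27 (limma adjusted p = 0.089), and was called with the replicate number as a block (adjusted p = 0.035) and by limma-voom (0.030). Iars1 was also called by limma-voom (0.028). Hars1 (histidine) was at -0.09 with all BPVB values below all sham values (limma adjusted p = 0.19). Farsb, the beta subunit for phenylalanine, was at -0.15 with overlapping groups (limma adjusted p = 0.27).

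Synthetases fall into class I and class II by the fold of their catalytic domain. Of 8 class I members 2 rose, with a median log2 difference of 0.12, and of 7 class II members 4 rose, with a median of 0.23. With the older symbols the medians were 0.16 for 10 class I genes and 0.13 for 9 class II genes, with 4 called higher in each, so the order depended on the 4 genes. The difference between the classes was not tested.

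Several cytosolic synthetases sit together in the multisynthetase complex, held by the scaffold proteins Aimp1, Aimp2 and Eef1e1. Of the 7 listed synthetases in this complex, with Eprs1 and Kars1, 3 were higher (Eprs1, Qars1 and Rars1) and 4 were not called, with a median log2 difference of 0.16. The 12 listed synthetases outside it had 5 calls, all higher, and a median of 0.10. The difference between these lists was not tested. The scaffold gene Aimp2 fell from 24.8 ± 0.758 to 18.8 ± 1.80 FPKM, a log2 difference of -0.39 (limma adjusted p = 0.0025), and all its BPVB values were below all its sham values.

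The 17 listed mitochondrial synthetases are nuclear genes for enzymes that charge tRNA inside the organelle. Of these 0 were higher, 1 lower and 16 not called, beside 17.2% higher and 14.3% lower among all genes tested. The median log2 difference of the 17 was -0.09. None was higher at an unadjusted p under 0.05, by limma (0 genes) or limma-voom (0 genes). The one that fell was Sars2, for serine, at 3.48 ± 0.709 FPKM against 5.11 ± 0.732 and a log2 difference of -0.51 (limma adjusted p = 0.034), opposite in sign to cytosolic Sars1. Its call was lost with the replicate block (adjusted p = 0.061), with no filter on low values (0.064) and without the third BPVB, the second sham or the third sham library, with an adjusted p of up to 0.11.

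Upstream of ATF4, the genes of the eIF2 kinases, eIF2, its exchange factor eIF2B and the eIF2 phosphatase gave few calls at the RNA level. Of 14 genes 1 was higher and 1 lower, beside 17.2% higher and 14.3% lower among all genes tested. The median of the 14 was 0.02, the same as over all genes. Eif2ak4, the kinase GCN2 that senses uncharged tRNA, had a log2 difference of -0.02 (limma adjusted p = 0.92), and Eif2ak3, the endoplasmic reticulum kinase PERK, of -0.14 (limma adjusted p = 0.21). Kinase activity was not measured. Eif2s2, the beta subunit of eIF2, rose by 0.19 on the log2 scale (limma adjusted p = 0.0061). The log2 difference of Eif2b1, a subunit of eIF2B, was -0.19 (limma adjusted p = 0.031), and its call was lost with TPM scaling (adjusted p = 0.067), limma-voom (0.086) or the replicate block (0.060), and without the second BPVB, the third BPVB, the second sham or the third sham library, with an adjusted p of up to 0.10.

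Among other known ATF4 targets Nupr1 stood out. Of 16 genes 9 were higher, 1 lower and 6 not called, beside 17.2% higher and 14.3% lower among all genes tested. The median of the 16 was 0.31. Nupr1, a small stress-induced nuclear protein, rose from 58.2 ± 1.89 to 202 ± 1.92 FPKM, a ratio of 3.47 and a log2 difference of 1.79 (limma adjusted p = 2.8e-09). Its promoter stretch is printed above. Atf3, a stress-induced factor, had 8.07 ± 1.10 FPKM against 4.64 ± 0.609 and a log2 difference of 0.74 (limma adjusted p = 0.0017). It rose while the 8 immediate-early genes fell. Gdf15, a secreted stress cytokine, had a log2 difference of 0.78 (limma adjusted p = 0.021), and its call was lost without the first BPVB, the second BPVB, the first sham or the second sham library, with an adjusted p of up to 0.070, and by limma-voom (0.095). Herpud1, a protein of degradation at the endoplasmic reticulum, fell by 0.54 on the log2 scale (limma adjusted p = 4.0e-06).

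**Figure D4:**
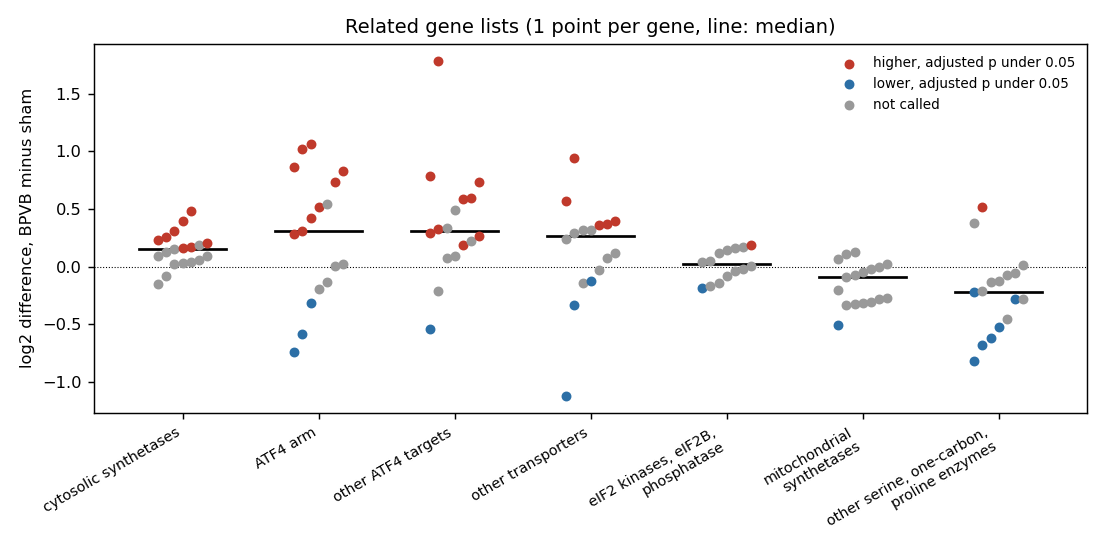
Log2 difference between the BPVB and sham groups for each tested gene (1 point) in the synthetases with the 4 older symbols, the ATF4 arm and 5 related lists, with a line at the median of each. Red genes were called higher and blue genes lower. The medians run from 0.31 for the ATF4 arm and the other ATF4 targets to -0.22 for the other serine, one-carbon and proline enzymes.

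Of the 16 other amino acid transporters tested, 5 were higher, 3 lower and 8 not called, with a median of 0.27. Over all genes tested 17.2% were higher and 14.3% lower. A further gene of the transporter list, Slc7a11, the cystine carrier and a known ATF4 target, was under the filter on low values. Slc1a3, a glutamate carrier, rose by 0.95 on the log2 scale (limma adjusted p = 0.00077), Slc38a1, a glutamine carrier, by 0.57 (limma adjusted p = 0.00047), and Slc1a5, another glutamine carrier, by 0.39 (limma adjusted p = 0.0063). Slc38a3, also a glutamine carrier, fell from 5.08 ± 0.471 to 2.06 ± 0.178 FPKM, a log2 difference of -1.12 that made it a DEG (limma adjusted p = 7.4e-05). Slc7a6, a light chain that pairs with Slc3a2, fell by 0.34 (limma adjusted p = 0.013), and all its BPVB values lay below all its sham values. Thus 2 light chains of the same heavy chain, Slc7a5 and Slc7a6, moved in opposite directions.

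The other enzymes of serine, one-carbon and proline metabolism gave 1 gene higher, 6 lower and 9 not called of 16 tested. Over all genes tested 17.2% were higher and 14.3% lower. The median of the 16 was -0.22. Another 2 listed genes, Gldc and Sds, were under the filter. Prodh, which breaks proline down, fell from 7.18 ± 0.453 to 3.84 ± 0.0376 FPKM, a log2 difference of -0.82 (limma adjusted p = 9.3e-05). Prodh was thus lower, as were Aldh18a1 and Pycr1 of proline synthesis. Aldh1l2, a mitochondrial folate enzyme, fell by 0.68 on the log2 scale (limma adjusted p = 0.0033), and Gcsh, a carrier protein of the glycine cleavage system, by 0.62 (limma adjusted p = 0.00017). With Shmt2, these are mitochondrial one-carbon genes that fell where Mthfd2 rose. P4ha3, a subunit of prolyl hydroxylase, had a log2 difference of 0.52 (limma adjusted p = 0.037), and leaving out any library but the first sham library ended the call, with an adjusted p of up to 0.11, as did limma-voom (0.078).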

How the data were processed

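The authors deposited 1 FPKM value per gene and rat, 6 libraries in all. The sources differ on how the values were made. The submitters' processing notes name HISAT2 2.0.5, StringTie 1.3.3b, featureCounts 1.5.0-p3 and DESeq2 1.20.0, whereas the paper names fastp, HISAT and HTSeq-count, and they name different library kits. Genome build, annotation and strand setting are not given in the sources used here. DESeq2 was not run here. Fragments per gene were recovered from the steps of the deposited FPKM (whole for 100.0% of 17833 genes), and 0 per-sample columns were left unused.

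Groups were compared with limma 3.58.1 in R 4.3.3 (lmFit, eBayes with a trend, two-sided) on log2(FPKM + 0.5). The 15150 genes averaging 0.1 FPKM or more entered the fit, and p-values were adjusted over all of them by Benjamini-Hochberg. The procedure was also run on simulated counts that had the same small spread beyond counting error for every gene. That run cannot show how the calls behave at the spread between real rats. Alternatives were pseudocounts of 1 and 0.1, a filter at 1 FPKM, no filter, median-of-ratios and TPM scaling, the replicate block, robust eBayes, limma-voom on the fragments, and leaving out each library. Adding the 4 older symbols was chosen after seeing the data. The members and lists were chosen with earlier results of these data known. All members are named, with values per library for those called with an absolute log2 difference of at least 0.3 and for Atf4 and Asns. From related lists at most the 3 largest called rises and falls are named, plus Eif2ak4, Eif2ak3 and Atf3. One further gene of this rule is not reported here. Slc7a11, Gldc and Sds are named only as genes under the filter. The markers Hopx and Scgb1a1 were chosen after their values were seen. Promoters and gene spans are from RefSeq GRCr8. A count of 0 was read as up to 3 fragments. All else was done in Python 3.11.15 (numpy 2.4.6, pandas 2.3.3, matplotlib 3.10.9).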

Additional observations from a re-analysis of the deposited data

How the results depend on the processing

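The count of members called higher was 15 and lay between 13 and 17 over all alternatives, and 3 members were called lower under each of them. The number of member DEGs was 2, and was 0 with a pseudocount of 1, 1 with median-of-ratios scaling and 0 to 2 when a library was left out. It was 0 without the third BPVB library and 1 without the first BPVB library or any 1 of the 3 sham libraries, since Trib3 and Asns lie close to the threshold. The narrower form of the promoter element lowered the share of members from 34.5% to 10.3%. The median log2 difference was 0.12 to 0.18 for the synthetases and 0.28 to 0.35 for the ATF4 arm over all alternatives, while that of all genes was 0.00 with median-of-ratios and 0.05 with TPM scaling. The sign turned for 4 members that were not called. Median-of-ratios scaling gave -0.0011 for Vars1, -0.0017 for Psat1 and -0.020 for Psph. When a library was left out, the log2 difference lay between -0.0013 (without the third BPVB library) and 0.070 for Vars1, between -0.030 (without the second sham library) and 0.064 for Farsa, between -0.12 (without the second BPVB library) and 0.13 for Psat1, also turning without the third sham library (-0.081), and between -0.14 (without the third sham library) and 0.22 for Psph, which turned in 4 of the 6 fits. The cause was not tested. With the replicate block 15 members were higher, 3 lower and 2 DEGs, and no call among the 32 changed, whereas Kars1 was gained (adjusted p = 0.035) and, of the genes named from related lists, Sars2 and Eif2b1 were lost (0.061 and 0.060). Same-numbered libraries correlated by 0.014 to 0.025, and each library correlated best with the one of its own number. What the numbers stand for is not given in the sources used here, and a pairing was not tested. With a mean FPKM of at least 1, Chac1 and Slc7a3 gave no value. Their few fragments limit both.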
